A study of Mus musculus with 2 samples.

Results

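Among mast cells grown from explanted mouse embryos and yolk sacs, 160 cells carried the most transcripts of *Calca*, *Egln3*, *Bnip3* and *Mxd1*. They were selected on measured values. Cells with 1000 to 5000 detected genes and at most 5% mitochondrial unique molecular identifiers (UMIs, which each stand for 1 captured transcript) were kept. Of these, the cells with at least 40 UMIs of *Cpa3* and under 20 UMIs of *Mcpt1* per 10000 UMIs were ranked by the sum of the 4 rule genes per 10000 UMIs, and the top 4% were chosen. This gave 160 of 3992 *Cpa3*-high cells, in a series of 5158 cells past the filter and 6541 deposited barcodes. The levels of the 6 genes of the rule and the gate are therefore a description of the choice and not a result.

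The study asked how blood-forming cells of the embryo proper and of the yolk sac differ when each tissue is cultured apart from the other. Both groups came from C57/BL6 concepti at E8.5 with 5 to 7 somite pairs, pooled before culture. Embryo tissue without its yolk sac gave the embryo explants (Em-Ex), and yolk sacs gave the yolk sac explants (YS-Ex). Both were kept for 10 days in medium with serum, SCF, IL-3 and FLT3 ligand, and CD31+CD45+c-Kit+CD41- cells were then sorted and captured as 1 droplet library per group. No genotype or treatment differed between the groups, so that tissue of origin and library cannot be told apart. Cells of 1 library are not replicates, and no test was run. The 95% intervals in parentheses cover counting error only.

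Mast cells store histamine, serotonin and proteases such as the carboxypeptidase encoded by *Cpa3* in granules. In cells short of oxygen, the hypoxia-inducible factors (HIF) escape prolyl hydroxylation and switch on genes of glucose uptake, glycolysis and mitochondrial turnover. *Egln3* encodes a HIF prolyl hydroxylase that is itself induced by HIF, and *Bnip3* a receptor on the outer mitochondrial membrane for the removal of mitochondria, also a HIF target. *Calca* encodes calcitonin and the neuropeptide CGRP, and *Mxd1* a partner of MAX that opposes MYC and is known from cells that stop dividing and differentiate.

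The 160 cells were 48 of 2077 *Cpa3*-high cells in Em-Ex (2.31%, 1.71–3.05), and in YS-Ex 112 of 1915 (5.85%, 4.84–7.00). The last 3 cells inside the limit had 4.03, 4.0 and 3.97 UMIs of the rule genes per 10000, and the first 3 outside had 3.96, 3.95 and 3.93, so that the limit cut through a continuous range. The median was 7.10 in the selected cells of Em-Ex and 6.40 in those of YS-Ex, and 0 among the other *Cpa3*-high cells of either library. The highest value was 139, in 1 YS-Ex cell with 148 UMIs of the rule genes among 10625. The selected cells were slightly shallower than the others, with a median of 9782 against 11480 UMIs in Em-Ex and 10072 against 11969 in YS-Ex. Of the 35 barcodes that occurred in both libraries, 1 was a selected YS-Ex cell.

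The name under which these cells were proposed joins mast cells, hypoxia-type genes and *Calca*, and was checked in parts. The list of 13 mast cell markers was compared between the selected and the other *Cpa3*-high cells. *Cpa3*, one of them, was fixed by the gate and is no support, at 10250.4 CPM (UMIs per 1000000 UMIs of the pooled cells) in Em-Ex and 16572 in the YS-Ex cells. Of the 12 markers the rule did not use, 7 had a log2 ratio above 0 in Em-Ex and 4 below, and 9 were above and 3 below in YS-Ex. The median log2 ratio was 0.07 and 0.24 over the 11 measured, and 1, *Hdc* in YS-Ex, passed 2-fold. As examples, the tryptase gene *Tpsb2* was at 9389 against 7252 CPM in the other *Cpa3*-high cells of Em-Ex and 9155 against 8337 CPM in YS-Ex, and *Kit*, the SCF receptor, at 412 against 339.6 CPM and 1012 against 989.6 CPM, while *Mcpt4*, another protease, was at 921 against 956 CPM and 499 against 837 CPM.

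Whether *Calca* and the hypoxia-type pair go together cannot be read from the selected cells, since a ranking on a sum fills the list with cells that are high for 1 gene. As a description, 13 of the 48 selected Em-Ex cells had a UMI of *Calca*, 33 had one of *Bnip3* and 1 had both, while of 112 in YS-Ex 39 had *Calca*, 60 had *Bnip3* and 13 had both. Among all *Cpa3*-high cells, which include the selected ones, *Bnip3* was found in 10 of 98 cells with *Calca*, where 291 of all 2077 had it in Em-Ex. In YS-Ex it was found in 23 of 101, where 437 of all 1915 had it. *Egln3* and *Bnip3* occurred together more often, with *Bnip3* in 54 of 139 *Egln3*-positive *Cpa3*-high cells of Em-Ex (38.8%) and 69 of 136 of those of YS-Ex (50.7%).

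**Figure D1:**
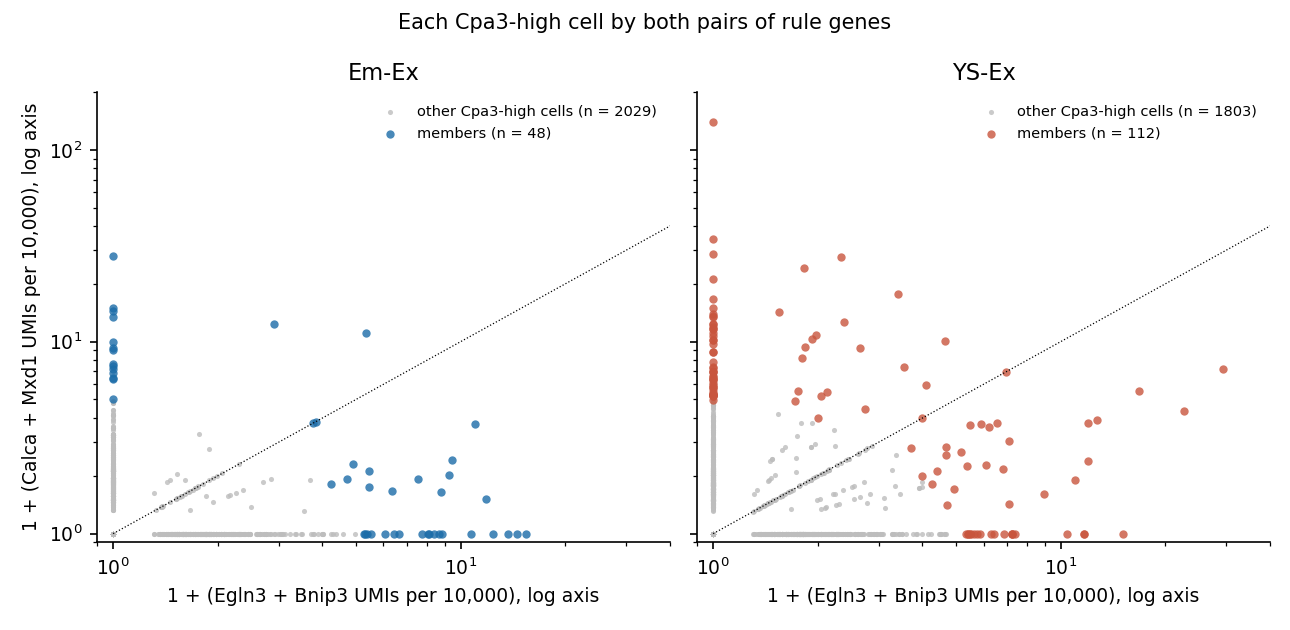
Each point is 1 *Cpa3*-high cell, by its *Egln3* plus *Bnip3* UMIs per 10000 (x axis) and its *Calca* plus *Mxd1* UMIs per 10000 (y axis), each plus 1 and on a log axis, with equal values on the dotted line. The 48 coloured Em-Ex cells and 112 coloured YS-Ex cells were selected on the sum of both axes, and most lie along one axis or the other, a pattern that choosing on a sum can itself give.

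At higher counts the result was not clear-cut. Of the cells with at least 3 UMIs of *Calca*, 2 of 20 in Em-Ex (10.0%, 1.23–31.7), and in YS-Ex 3 of 31 (9.68%, 2.04–25.8) had at least 3 UMIs of *Egln3* and *Bnip3* together. Among the cells with fewer *Calca* UMIs the shares were 2.43% (1.81–3.19) in Em-Ex and 5.10% (4.15–6.19) in YS-Ex, and the intervals overlap in both libraries. *Mxd1* went with *Calca* in YS-Ex, while the intervals overlap in Em-Ex. Among cells with at least 3 *Mxd1* UMIs, 2 of 21 in Em-Ex (9.52%, 1.17–30.4) and in YS-Ex 10 of 90 (11.1%, 5.46–19.5) reached 3 *Calca* UMIs, against 0.875% (0.520–1.38) and 1.15% (0.714–1.75) of the remaining cells. In YS-Ex *Mxd1* also went with the hypoxia-type pair, which reached 3 UMIs in 15.6% (8.77–24.7) of *Mxd1*-high cells and 4.66% (3.74–5.73) of the rest. The *Mxd1*-high cells of YS-Ex were somewhat deeper, with a median of 13002 against 11824 UMIs.

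The cells were then ranked without a gene, and that gene, which the ranking did not use, was read. Ranked on *Egln3*, *Bnip3* and *Mxd1*, the top cells held *Calca* at 4.91 times (2.86–7.95) the level of the remaining *Cpa3*-high cells in Em-Ex and 20.4 times (16.8–24.7) in YS-Ex. Much of this came from 1 cell in each library, with 8 and 144 *Calca* UMIs, and without it the values were 2.79 times (1.32–5.23) and 7.84 times (6.05–10.1). The 160 cells highest for *Egln3* and *Bnip3* held *Calca* at 15.8 CPM in Em-Ex, 1.81 times (0.857–3.39) the level in the remaining *Cpa3*-high cells, and at 16.2 CPM in YS-Ex, 0.916 times (0.554–1.43). Without the cell with the most *Calca* UMIs these were 0.550 times (0.112–1.63) and 0.647 times (0.351–1.10). All of these intervals include equality. *Mxd1* in the same cells was at 2.81 times (1.78–4.26) and 1.97 times (1.58–2.43). The 160 cells highest for *Calca* and *Mxd1* held *Bnip3* at 0.988 times (0.395–2.05) the level of the rest in Em-Ex and 2.71 times (2.20–3.31) in YS-Ex, and *Egln3* at 4.47 times (2.34–7.82) and 6.39 times (4.55–8.83). The Em-Ex value of *Egln3* rested on 1 cell and was 1.06 times (0.217–3.15) without it. Both lists of 160 cells shared 20 cells, which is 12.5% of each, where each list held 4.01% of all *Cpa3*-high cells. The pairs thus overlapped in part, with *Mxd1* above equality and *Calca* not shown to be in cells chosen on the hypoxia-type pair alone. The cells are called here by the rule that selected them.

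The selected cells were described in 2 subsets, by which pair of rule genes had more UMIs. *Egln3* and *Bnip3* led in 30 Em-Ex and 45 YS-Ex cells, and *Calca* and *Mxd1* in 16 Em-Ex and 65 YS-Ex cells. In the remaining 2 cells of each library the pairs were equal. The subsets were of like depth, with medians of 10710 and 9494 UMIs in Em-Ex and 10948 and 9570 UMIs in YS-Ex. A comparison of the subsets in *Egln3*, *Bnip3*, *Calca* or *Mxd1* repeats the split and shows nothing further.

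*Calca*, the calcitonin and CGRP gene, was at 228 CPM (187–274) in the selected Em-Ex cells and 4.77 CPM (3.97–5.69) in the other *Cpa3*-high cells, and at 289 CPM (259.6–320.5) and 3.5 CPM (2.79–4.34) in YS-Ex. It was concentrated in few cells. A UMI of *Calca* was found in 27.1% of the selected Em-Ex cells and 34.8% of those of YS-Ex, against 4.19% and 3.44% of the other cells and 1.95% and 4.96% of the cells below the *Cpa3* limit. Those *Cpa3*-low cells had a median of 16935 UMIs in Em-Ex and 10227 in YS-Ex, and include several cell types. One YS-Ex cell held 144 of the 355 *Calca* UMIs (40.6%), and without it the log2 ratio to the other cells went from 6.36 to 5.62. The receptor side of CGRP was scarce, as *Calcrl* was at 12.3 CPM in selected and 6.32 CPM in other cells of Em-Ex, and at 13 and 15.4 CPM in YS-Ex. *Ramp1*, which encodes its partner in the CGRP receptor, had 0 UMIs in the 48 selected Em-Ex cells and was at 10.6 CPM in those of YS-Ex, against 3.42 CPM in the others. Of the 10 genes listed for the calcitonin family and its receptors, 5 were in the table, 1 reached 20 CPM in Em-Ex, without differing 2-fold, and 0 in YS-Ex.

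*Mxd1* was at 109 CPM (81.5–142) in the selected and 12.3 CPM (11.0–13.7) in the other cells of Em-Ex, and at 351 CPM (318–385) and 25.7 CPM (23.7–27.9) in YS-Ex. It was the most widespread rule gene in YS-Ex, with a UMI in 84 of 112 selected cells, and was found in 22 of 48 in Em-Ex. Of 10 further genes of the MAX network in the table, 3 were measured at 20 CPM or more in both libraries and 0 were past 2-fold. Of all genes 1.36% were higher and 0.438% lower in both, so 0 of 3 tells nothing particular. Among the 3 was *Max* itself, at 69.8 against 63.1 CPM in Em-Ex and 41.5 against 47.3 CPM in YS-Ex.

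*Bnip3* was at 320.1 CPM (272–374) in the selected cells of Em-Ex and 12.3 CPM (10.9–13.7) in the others, and at 261 CPM (233–291) and 23.6 CPM (21.7–25.7) in YS-Ex. *Egln3* was at 144 CPM (112–181) against 5.20 CPM (4.36–6.16), and at 72.4 CPM (58.2–89.1) against 4.73 CPM (3.89–5.69). *Egln3* was also found outside the gate. Its UMIs were seen in 33.9% of the *Cpa3*-low cells of Em-Ex and 21.3% of those of YS-Ex, more often than in the other *Cpa3*-high cells (5.72% and 5.38%). The *Cpa3*-low cells are defined by the gate alone and also held mast cell markers, so they are no background for cells that lack the gene.

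Because the rule fixes these 4 genes, the remaining genes were compared between the selected and the other *Cpa3*-high cells within each library. A gene was counted as higher or lower when its pooled level differed 2-fold or more, among genes at 20 CPM or more in either group. Of 4744 genes in Em-Ex, 205 were higher (4.32%) and 170 lower (3.58%). Of 5065 genes in YS-Ex, 138 were higher (2.72%) and 137 lower (2.70%). Across 4335 genes measured in both, 59 were higher in both (1.36%) and 19 lower in both (0.438%). Since the cells were chosen from the same measurements, these shares serve as the background against which the gene lists are read.

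**Figure D2:**
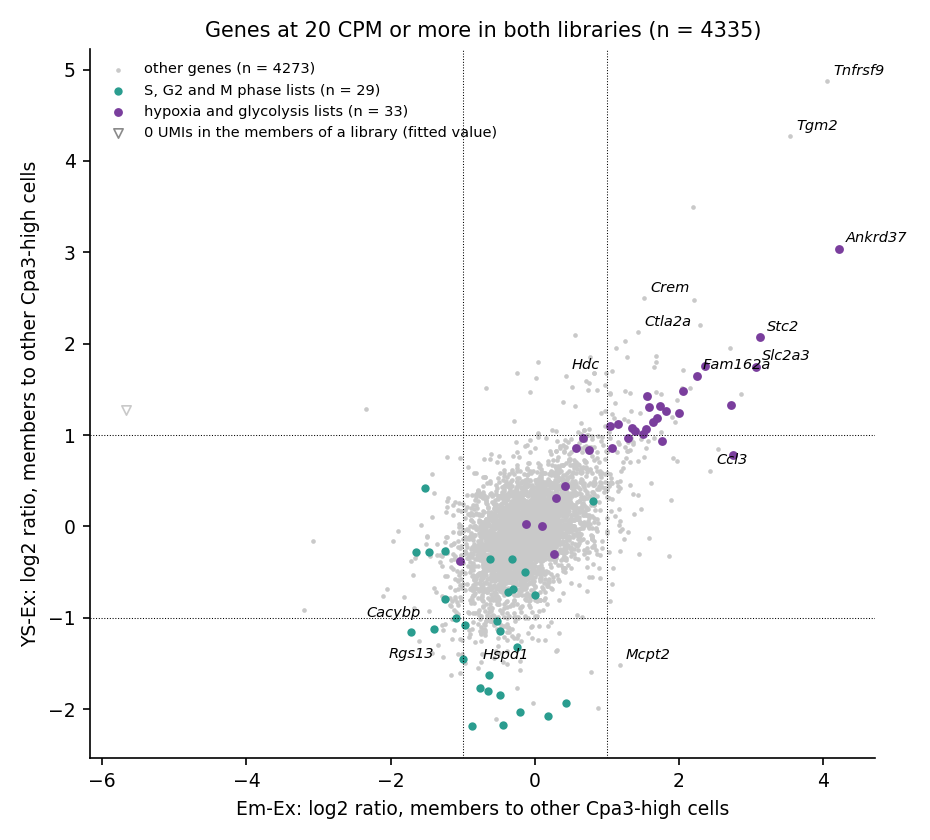
Each point is 1 of 4335 genes, by the log2 ratio of its pooled level in the selected cells to the other *Cpa3*-high cells in Em-Ex (x axis) and YS-Ex (y axis), with 2-fold at the dotted lines and an open triangle for a gene with 0 UMIs in the selected cells of a library. Genes of the hypoxia and glycolysis lists (33, purple) lie mostly in the upper right, and genes of the S, G2 and M phase lists (29, green) mostly below 0 on the y axis.

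Hypoxia response genes were higher in both libraries. Of 45 hypoxia response genes in the table, 24 of 32 measured were higher in Em-Ex, and in YS-Ex 20 of 35, and 18 of 30 were higher in both, beside the 1.36% of all genes. Genes that reached 20 CPM in the selected cells alone could be counted only as higher. Among those that reached it in the other cells, 17 of 24 were higher in Em-Ex, 12 of 24 in YS-Ex and 12 of 22 in both. *Ankrd37*, which was under 20 CPM in the other cells, is a known HIF target that encodes an ankyrin repeat protein. It was at 154 CPM (121–193) in the selected and 8.22 CPM (7.15–9.41) in the other cells of Em-Ex, 18.7 times (14.2–24.5), and at 55.3 and 6.75 CPM in YS-Ex, 8.19 times (6.08–10.9). *Fam162a*, a mitochondrial protein gene induced by hypoxia, was at 593 against 125 CPM in Em-Ex and 319.7 against 102 CPM in YS-Ex. *Stc2*, the secreted stanniocalcin, was likewise under 20 CPM in the other cells and was 8.65 times (5.91–12.4) higher in Em-Ex and 4.16 times (2.96–5.75) in YS-Ex. *Ero1l*, which oxidises disulfide bonds in the endoplasmic reticulum, was much more abundant, at 1635 against 554 CPM in Em-Ex and 1705 against 635 CPM in YS-Ex. All 4 were higher in the same direction in both libraries, with the larger ratio in Em-Ex.

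Many genes of glucose uptake and glycolysis were higher too. Of 21 genes, 15 of 17 measured were higher in Em-Ex, 11 of 17 in YS-Ex and 11 of 16 in both, and among those at 20 CPM or more in the other cells 13 of 15, 8 of 13 and 8 of 13. Several of them also stand on the hypoxia list. The glucose transporter gene *Slc2a3* was at 277 CPM (232–328) against 33.1 CPM (30.9–35.4) in Em-Ex and at 218 CPM (193–246) against 64.9 CPM (61.7–68.3) in YS-Ex. Hexokinase *Hk2*, which takes the first step, was 3.52 times (2.77–4.41) and 2.38 times (2.09–2.71) higher, and the phosphofructokinase *Pfkl* 4.13 times (3.03–5.53) and 2.77 times (2.11–3.59). *Aldoa* was found in nearly every cell of either group and was still higher, at 2905 against 975 CPM in Em-Ex and 1674 against 677 CPM in YS-Ex. The lactate and proton exporter gene *Slc16a3* was 5.11 times (3.80–6.75) and 3.36 times (2.62–4.26) higher. *Ldha*, which makes lactate, stayed under 2-fold at 1.59 times (1.51–1.67) and 1.95 times (1.88–2.03), and *Gapdh* passed it in Em-Ex at 2.11 and missed it in YS-Ex at 1.81. Hexokinase *Hk1*, at log2 ratios of 0.10 and 0.01, was level. The lactate transporter gene *Slc16a1* had values of -0.68 and -0.66. It was under 20 CPM in every group, at 4.10 against 8.22 CPM and 3.25 against 5.78 CPM, and no direction is read from it.

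The subsets differed in these genes. Since they were split by *Egln3* and *Bnip3* against *Calca* and *Mxd1*, a difference in genes that vary with *Egln3* and *Bnip3* is partly given by the split. In the cells led by *Egln3* and *Bnip3*, 28 of 35 hypoxia genes measured in both libraries were 2-fold or more above the other *Cpa3*-high cells in both, where 1.73% of all 4342 genes were. In the cells led by *Calca* and *Mxd1* it was 0 of 23, where 2.11% of 4398 genes were. These counts are partly set by the minimum of 20 CPM in either group, through which genes entered the first count only because they were high in that subset. The sums use every gene and both subsets alike. The 45 hypoxia genes summed to 24620.4 CPM in the first subset of Em-Ex, 8509 CPM in the second and 8127 CPM in the other *Cpa3*-high cells, and to 19831, 7335 and 6413 CPM in YS-Ex. Relative to the other cells this is 3.03 times (2.96–3.10) and 1.05 times (0.992–1.10) in Em-Ex, and 3.09 times (3.03–3.15) and 1.14 times (1.11–1.18) in YS-Ex. Per cell the sum ranged from 43.7 to 475 per 10000 in the first subset of Em-Ex and from 55.0 to 691 in that of YS-Ex, and from 36.7 to 255 and 32.6 to 191 in the second, so single cells of both subsets overlapped. Cells were also ranked on *Calca* and *Mxd1* alone, with no such split. The top cells of YS-Ex then had log2 ratios of 1.78 for *Ankrd37*, 1.11 for *Slc2a3* and 0.97 for *Ero1l*, and those of Em-Ex 1.0, -0.25 and 0.33. *Fam162a*, *Hk2*, *Aldoa*, *Slc16a3*, *P4ha1* and *Pfkl* were under 2-fold there, at -0.09 to 0.68 in YS-Ex and 0.02 to 0.50 in Em-Ex.

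**Figure D3:**
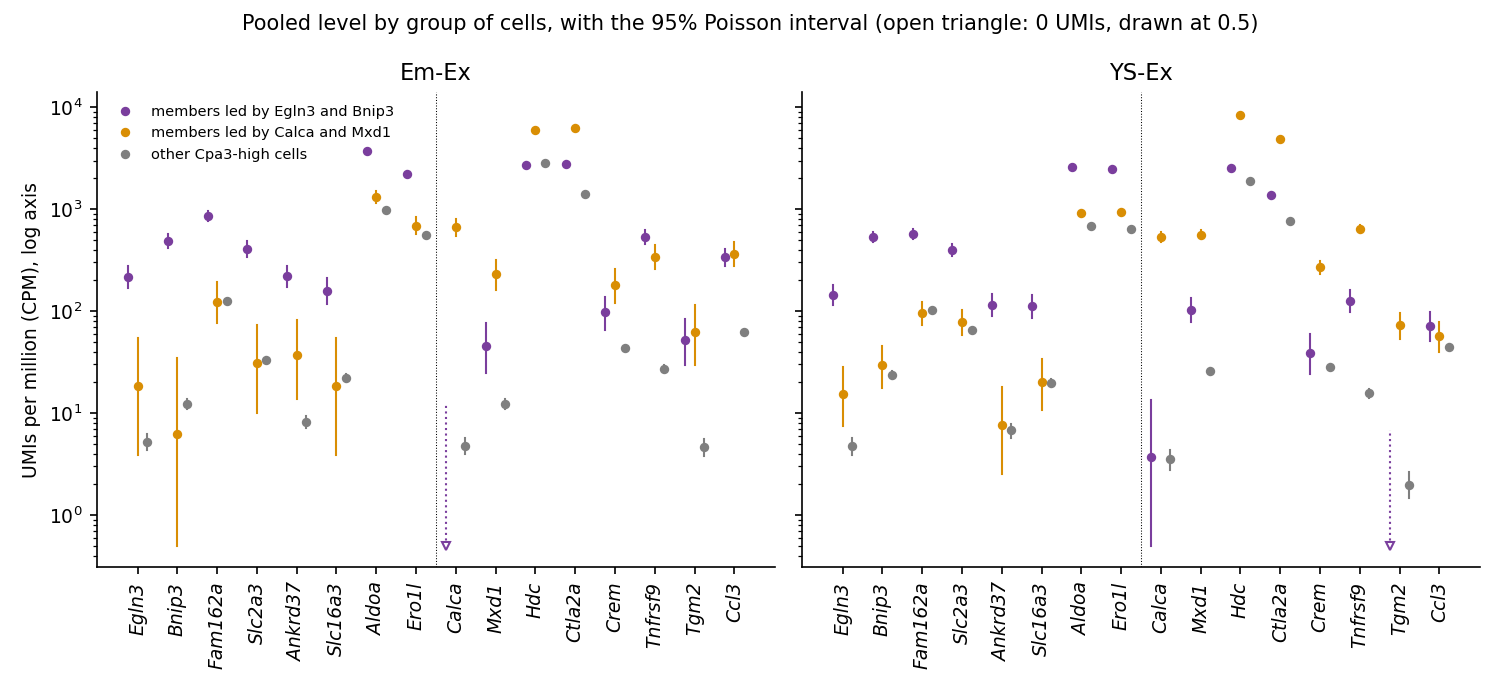
Pooled levels in CPM (log axis) of 8 genes that are high with *Egln3* and *Bnip3* (left of the dotted line) and 8 others, in the cells led by *Egln3* and *Bnip3* (purple), those led by *Calca* and *Mxd1* (orange) and the other *Cpa3*-high cells (grey), with exact 95% Poisson intervals. *Slc2a3* reads 409, 31.0 and 33.1 CPM in these groups of Em-Ex, while *Hdc* reads 2695, 5916 and 2821 CPM.

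The parts of the HIF pathway itself were mostly level. *Hif1a*, which encodes the oxygen-regulated subunit, was at 71.8 against 71.1 CPM in Em-Ex and at 235 against 196 CPM in YS-Ex. Of 8 pathway genes measured in both libraries 1 was higher in both, beside 1.36% of all genes. That gene was *Egln1*, which encodes another HIF prolyl hydroxylase and is a HIF target, at 22.6 against 10.6 CPM and 32.5 against 15.1 CPM. It reached 20 CPM in the selected cells alone and so could be counted only as higher. The same held for *Vhl*, which was higher in Em-Ex, at 26.7 against 13.5 CPM. Of 15 genes of mitophagy and autophagy, 1 was higher in both, beside the same 1.36% of all genes. It was *Bnip3l*, the closest relative of *Bnip3*, at 248 against 80.2 CPM and 197 against 89.2 CPM. Transcripts of the mitochondrial genome were lower in the selected cells, at 24395 against 30709.7 CPM in Em-Ex (0.794 times, 0.780–0.809) and 29616 against 35205 CPM in YS-Ex (0.841 times, 0.832–0.850). Of its 12 genes measured in both, 0 passed 2-fold, where 0.438% of all genes were lower in both. The limit of 5% on mitochondrial UMIs held for both groups. The 35 nuclear respiratory chain genes were closer to level, at 0.874 times (0.851–0.898) and 0.938 times (0.921–0.956).

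Since many of these genes move together, the 250 bases before the start of the rule genes and of the 15 highest genes were read from RefSeq (GRCm38.p6, the mm10 assembly) and searched for the HIF core, ACGTG or GCGTG, on both strands (CACGT and CACGC read on the printed strand). The table held 16 of these 19 genes, and *Slc2a3*, *Crem* and *Ero1l* were not among them. Of 27025 genes, taking the first start listed, 16.6% had ACGTG, 28.2% GCGTG and 38.6% either. Of the 12 highest genes in the table, 6 had either. The windows below show the 4 rule genes and 2 of the highest genes, *Ankrd37* and *Fam162a*, picked for their matches. Of the other highest genes, *Tnfrsf9*, *Hilpda*, *Ccl9*, *Ctla2a*, *Rbms2* and *Aldoa* had 0. They are printed 5′ to 3′ on the strand of the gene, with each match in capitals. A match is not a binding site, and the palindrome CACGTG counts on both strands. *Egln3* had 1 match, *Bnip3* 5, *Ankrd37* 4, *Fam162a* 6, *Mxd1* 2 and *Calca* 0.
*Egln3*, chr12:54203875-54204124 (- strand): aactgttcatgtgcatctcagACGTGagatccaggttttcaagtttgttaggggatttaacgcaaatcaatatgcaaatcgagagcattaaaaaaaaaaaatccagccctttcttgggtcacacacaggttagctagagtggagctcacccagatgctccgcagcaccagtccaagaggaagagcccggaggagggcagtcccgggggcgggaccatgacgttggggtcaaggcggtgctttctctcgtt
*Bnip3*, chr7:138909507-138909756 (- strand): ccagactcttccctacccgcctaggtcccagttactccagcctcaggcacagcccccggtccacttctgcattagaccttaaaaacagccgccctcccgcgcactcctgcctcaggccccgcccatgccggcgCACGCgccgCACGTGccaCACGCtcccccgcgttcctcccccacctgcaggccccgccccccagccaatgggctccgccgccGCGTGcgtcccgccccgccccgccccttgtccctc
*Ankrd37*, chr8:45999851-46000100 (- strand): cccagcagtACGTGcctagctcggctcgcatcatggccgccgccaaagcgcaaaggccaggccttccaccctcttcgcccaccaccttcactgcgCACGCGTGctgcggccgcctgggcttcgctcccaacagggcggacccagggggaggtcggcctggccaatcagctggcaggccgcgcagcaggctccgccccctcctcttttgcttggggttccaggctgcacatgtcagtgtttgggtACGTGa
*Fam162a*, chr16:36071562-36071811 (- strand): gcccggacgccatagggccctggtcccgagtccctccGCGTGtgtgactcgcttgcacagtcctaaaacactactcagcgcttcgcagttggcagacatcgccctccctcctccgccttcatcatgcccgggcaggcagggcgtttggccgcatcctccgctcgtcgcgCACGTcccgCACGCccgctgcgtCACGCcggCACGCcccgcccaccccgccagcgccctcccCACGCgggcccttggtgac
*Mxd1*, chr6:86669160-86669409 (- strand): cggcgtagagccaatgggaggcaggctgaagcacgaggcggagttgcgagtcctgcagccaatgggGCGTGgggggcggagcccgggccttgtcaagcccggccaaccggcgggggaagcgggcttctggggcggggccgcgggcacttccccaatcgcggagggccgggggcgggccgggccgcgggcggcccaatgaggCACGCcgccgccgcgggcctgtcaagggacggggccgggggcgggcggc
*Calca*, chr7:114636358-114636607 (- strand): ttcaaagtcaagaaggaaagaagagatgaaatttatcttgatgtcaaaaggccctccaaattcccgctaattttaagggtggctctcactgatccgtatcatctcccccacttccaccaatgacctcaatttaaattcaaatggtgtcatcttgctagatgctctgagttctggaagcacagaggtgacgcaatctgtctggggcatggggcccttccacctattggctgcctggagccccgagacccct

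In the cells led by *Calca* and *Mxd1*, single mast cell genes were higher, and few members of the mast cell lists passed 2-fold. Beside the 2.11% of all genes, 0 of 8 proteases, 1 of 10 receptors and 1 of 12 mediator genes were 2-fold or more higher in both libraries, with median log2 ratios of 0.03 and 0.31 for the mediator list. *Hdc*, the histidine decarboxylase that makes histamine, was at 5916 CPM (5547–6304) in this subset of Em-Ex, 2695 CPM (2515–2885) in the subset led by *Egln3* and *Bnip3* and 2821 CPM (2801–2842) in the other *Cpa3*-high cells. In YS-Ex these levels were 8434 CPM (8212–8660.0), 2549 CPM (2416–2687) and 1879 CPM (1862–1896). *Hdc* was thus 2.20 times (2.00–2.41) and 3.31 times (3.12–3.51) higher in the first subset than in the second. *Ctla2a*, which encodes an inhibitor of cathepsin-type proteases, was at 6264, 2757 and 1409 CPM in Em-Ex and 4833, 1363 and 757 CPM in YS-Ex, and so was raised in both subsets and more in that of *Calca* and *Mxd1*. *Csf2rb*, the signalling chain of the IL-3 receptor, was at 1569 against 762 CPM between the subsets in Em-Ex and 2041 against 808 CPM in YS-Ex, the latter close to the 827 CPM of the other cells. Over 14 genes of mediator synthesis and storage, the sum was 1.55 times (1.49–1.61) the level of the other cells in Em-Ex and 1.88 times (1.84–1.92) in YS-Ex, with *Hdc* the largest part in YS-Ex and *Srgn*, the granule proteoglycan, in Em-Ex.

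*Tnfrsf9*, which encodes the costimulatory receptor 4-1BB, ranked first of the 15 highest genes by the smaller of its ratios in both libraries. It was at 453 CPM (396–517) against 27.2 CPM (25.3–29.3) in Em-Ex and at 454 CPM (417–493) against 15.6 CPM (14.0–17.2) in YS-Ex. Under 20 CPM in the other cells of YS-Ex, it could be counted there only as higher. A UMI of it was found in 23 of 48 and 51 of 112 selected cells. In YS-Ex it was 5.05 times (3.91–6.62) higher in the cells led by *Calca* and *Mxd1*, at 642 against 127 CPM. In Em-Ex these cells had 341 CPM and those led by *Egln3* and *Bnip3* 538 CPM, but 1 cell held 59 of the 166 UMIs of the latter, and no order of the subsets is read from it. *Crem*, a modulator of the transcriptional response to cAMP, was at 123 against 43.3 CPM in Em-Ex and 160.3 against 28.3 CPM in YS-Ex, and was the higher in the cells led by *Calca* and *Mxd1* in both, 1.85 times (1.07–3.19) and 6.93 times (4.39–11.5). Without the cell with the most *Crem* UMIs these were 3.82 times (1.95–7.82) and 6.16 times (3.89–10.2).

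The 2 remaining genes given as markers behaved unevenly. *Tgm2*, a transglutaminase that cross-links proteins, was at 53.3 CPM (34.8–78.2) against 4.62 CPM (3.82–5.52) in Em-Ex. These UMIs came from 5 of 48 selected cells, of which 1 held 61.5%. *Tgm2* was under 20 CPM in the other cells of both libraries and so could be counted only as higher. In YS-Ex it was at 38.2 CPM (28.1–50.8) against 1.98 CPM (1.46–2.64), from 14 of 112 cells. All 14 of these were led by *Calca* and *Mxd1*, with 0 UMIs in the 45 cells led by *Egln3* and *Bnip3*, a level at least 13.1-fold lower by a floor of 3 UMIs over the group. *Ccl3*, a chemokine of activated mast cells, was 5.36 times (4.53–6.30) higher in Em-Ex, at 334 against 62.4 CPM, and 1.52 times (1.2–1.91) higher in YS-Ex, at 67.5 against 44.3 CPM. Its share of cells with a UMI in YS-Ex was 19.6% in the selected and 11.1% in the other cells, and 22.7% in the *Cpa3*-low cells. *Ccl9*, another chemokine gene, was 7.30 and 2.71 times higher, with 50.5% of its Em-Ex UMIs in 1 of 8 positive cells. Over the chemokine and cytokine list, 7 of 15 genes were higher in Em-Ex (beside 4.32% of all genes), 3 of 13 in YS-Ex (2.72%) and 2 of 11 in both (1.36%). These 2 were *Ccl9* and *Tnfrsf9*, the latter a receptor gene on this list. Among those at 20 CPM or more in the other cells it was 5 of 13, 1 of 10 and 1 of 9. Lower in Em-Ex were *Ccl2*, at 4.10 against 22.4 CPM, and *Tnf*, at 36.9 against 78.4 CPM.

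In other mast cell programs few genes passed 2-fold, although some sums differed. Of all genes 1.36% were higher and 0.438% lower in both libraries. In lists this short, counts of 0 or 1 cannot be told from those shares. Of 8 granule proteases measured in both libraries, 0 were past 2-fold in the same direction, and *Cma1*, the chymase gene, was at 17706 against 17358 CPM in Em-Ex and 17813 against 15051 CPM in YS-Ex. Of 10 receptor genes, 0 were past 2-fold in both. The immediate-early genes, which report recent stimulation, numbered 0 of 25 in both, with *Fos* at 1764 against 1139.5 CPM and 1805 against 1739 CPM. Their sum was 1.39 times (1.36–1.42) that of the other cells in Em-Ex and 1.09 times (1.07–1.11) in YS-Ex. In the cells led by *Calca* and *Mxd1* the receptor sum was 1.36 and 1.38 times and the protease sum 1.29 and 1.23 times that of the other cells. Of the genes that follow, *Bcl2* and *Hilpda* in both libraries and *Cebpb* in Em-Ex reached 20 CPM in the selected cells alone, and so could be counted only as higher. One lineage transcription factor of 9 was higher in both, *Cebpb*, at 26.7 against 13.3 CPM and 58.6 against 21.4 CPM, and *Gata2* was at 519 against 553 and 789 against 724 CPM. *Bcl2*, which protects cells from death and had 14 UMIs in the selected Em-Ex cells, was the 1 of 11 apoptosis regulators higher in both, at 2.66 times (1.44–4.55) and 2.34 times (1.63–3.26), and *Hilpda*, a hypoxia-induced lipid droplet protein, the 1 of 15 lipid genes, at 3.11 times (2.05–4.56) and 3.32 times (2.49–4.36). For the p53, G1 regulator and stress lists it was 0 of 5, 0 of 8 and 0 of 10.

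The lowest genes were of mixed function. *Rgs13*, a regulator of G protein signalling known from mast cells, was at 98.5 against 204 CPM in Em-Ex and 91.1 against 215 CPM in YS-Ex. *Cacybp*, a calcyclin-binding protein, was at 55.4 against 123 CPM and 48.8 against 108 CPM, and *Birc5*, the survivin of dividing cells, at 59.5 against 128 CPM and 35.8 against 72.4 CPM. These 3 of the 15 lowest genes passed 2-fold in both libraries. The other 12 missed it in at least 1 library, at 0.412 to 0.573 times the other cells. They include *Nop56*, *Nhp2* and *Nhp2l1* of ribosomal and small nuclear RNA particles, *Srm* of polyamine synthesis, the chaperonin *Hspd1* and *Phgdh* of serine synthesis.

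Of 24 S phase genes, 4 of 20 measured were lower in Em-Ex, and in YS-Ex 13 of 15, and of 24 G2 and M phase genes 10 of 19 and 5 of 17, beside 3.58% of all genes in Em-Ex and 2.70% in YS-Ex. Of 15 G2 and M phase genes measured in both libraries 3 were lower in both, *Birc5*, *Ccnb1* and *Hmmr*. Of 14 S phase genes it was 0, beside 0.438% of all genes. In YS-Ex the 65 cells led by *Calca* and *Mxd1* had S phase genes at 180.2 CPM (149–216) and G2 and M phase genes at 166 CPM (136–201), 0.235 times (0.194–0.282) and 0.168 times (0.138–0.203) the other *Cpa3*-high cells. The 45 cells led by *Egln3* and *Bnip3* had 425 CPM (372–484) and 1366 CPM (1269.8–1468), 0.555 times (0.485–0.632) and 1.38 times (1.28–1.49), so that S phase genes were lower in both subsets and G2 and M phase genes in one. In Em-Ex the subsets were at 902 and 521 CPM for S phase and 581 and 825 CPM for G2 and M phase, against 1016 and 1202 CPM. Most cells of any group had few of these UMIs, with G2 and M phase medians of 1.27 to 1.96 per 10000, and the sums rest on few cells, which reached 135 per 10000 among the selected and 152 among the other cells of YS-Ex. The other *Cpa3*-high cells were also limited to those at or below the median of UMIs of these lists, while the selected cells were not. This lowers the cell cycle genes of the other cells, so upward turns of genes that vary with the cycle are partly given. *Rgs13* stayed at log2 ratios of -0.93 and -1.12. *Hspd1* went from -0.90 to -0.08 in Em-Ex and from -1.18 to -0.58 in YS-Ex. Of the 15 lowest genes 5 then turned above 0 in Em-Ex (*Birc5*, *Hmgn2*, *Nop56*, *Phgdh* and *Ddx39*) and 3 in YS-Ex (*Birc5*, *Hmgn2* and *Phgdh*). In Em-Ex 0 remained 2-fold lower, and in YS-Ex 1. *Birc5* is itself on the G2 and M phase list, so its turn was set by the choice of cells.

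**Figure D4:**
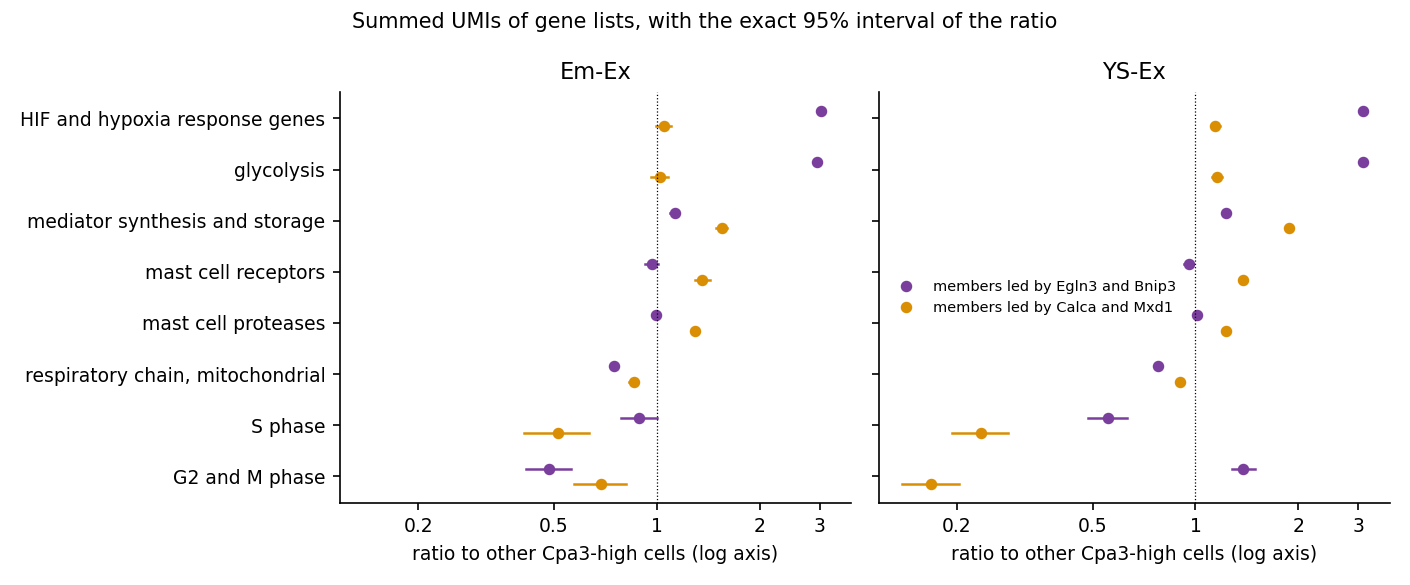
Summed level of 8 gene lists in the cells led by *Egln3* and *Bnip3* (purple) and by *Calca* and *Mxd1* (orange), as the ratio to the other *Cpa3*-high cells (x axis, log scale) with its exact 95% interval, in Em-Ex and YS-Ex. Hypoxia and glycolysis sit near 3 in purple and near 1 in orange in both libraries, whereas G2 and M phase reads 1.38 and 0.168 in YS-Ex and 0.483 and 0.686 in Em-Ex.

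Markers of other cell types were mostly low and partly moved with the selection. The 11 macrophage markers summed to 213 CPM in the selected and 148 CPM in the other cells of Em-Ex (0 to 21.8 and 0 to 79.8 per 10000 per cell) and to 120.4 and 52.4 CPM in YS-Ex (0 to 14.5 and 0 to 18.3), with *Mrc1* at 0 in the selected cells of Em-Ex. *Adgre1*, which encodes F4/80, was the 1 of 2 macrophage markers measured in both that was higher in both, at 28.7 against 7.10 and 25.2 against 7.81 CPM, and it too could be counted only as higher. The 5 dendritic markers in the table summed to 34.9 and 9.78 CPM in Em-Ex and 40.7 and 6.46 CPM in YS-Ex (at most 7.04 and 18.6 per 10000 in a selected cell), with *Flt3*, *Itgax* and *Ccr7* at 0. The single endothelial marker in the table, *Egfl7*, was at 88.2 against 15.3 CPM in Em-Ex (0 to 13.3 per 10000) and 30.1 against 16.9 CPM in YS-Ex (0 to 6.28). The part of these cells in the results was not tested. Of the markers of neuroendocrine and epithelial cells that express *Calca*, *Krt18* alone was in the table, and it had 0 UMIs in the selected cells. In YS-Ex *Krt18*, *Flt3*, *Itgax*, *Ccr7* and the stromal markers were at 0 in the whole library. Such genes may have been filtered, so these zeros say nothing about the selected cells. The remaining lists stayed low except that of basophils. It had UMIs in 97.9% of the selected and 97.4% of the other cells of Em-Ex, and in 94.6% and 93.6% of those of YS-Ex. Of 3 basophil markers measured in Em-Ex 1 was higher (beside 4.32% of all genes), and it could be counted only as higher. Basophil markers summed to 722 CPM in the selected and 585 CPM in the other cells of Em-Ex, and to 473 and 376 CPM in YS-Ex. Erythroid markers summed to 78.0 and 104 CPM in Em-Ex and 281 and 226 CPM in YS-Ex. Lymphoid markers were at 65.7 and 46.5 CPM and at 87.9 and 68.3 CPM, and megakaryocyte markers at 43.1 and 36.6 CPM and at 30.9 and 26.1 CPM. Eosinophil markers were at 18.5 and 19.2 CPM and at 37.4 and 28.5 CPM, neutrophil markers at 4.10 and 15.2 CPM and at 8.95 and 7.17 CPM, and stromal markers at 2.05 and 2.99 CPM and at 0 in YS-Ex.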

How the data were processed

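Reads were turned into UMI counts by the authors with Cell Ranger 2.0.1 and mm10, as the submitters' processing notes list (the gene annotation is not given in the sources used here). The deposited table holds whole, unnormalized counts for 11691 genes in the barcodes of Em-Ex and YS-Ex. Every gene had UMIs in at least 30 barcodes of a library or in none, and genes at 0 in a library may have been filtered. All barcode columns named their library, and 0 were left unmapped. The kept cells held 42752370 UMIs in Em-Ex and 27031627 in YS-Ex.

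Cells were filtered as the study's methods state (1000 to 5000 genes, at most 5% of UMIs from 13 mitochondrial genes), and the rule was applied in Python 3.11.15 with numpy 2.4.6 and scipy 1.17.1. Doublets were not removed. Counts were summed over the cells of a group and divided by their total UMIs (CPM), with 95% intervals from the exact Poisson distribution. Ratios have exact conditional binomial intervals, shares have exact Clopper-Pearson intervals, and log2 ratios add 0.5 UMI to each sum. With 1 library per group there is no test. The comparison step was tested on simulated data.

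Genes were named by rule: the genes of the rule and gate with *Tgm2* and *Ccl3*; the 15 highest and 15 lowest genes by the smaller log2 ratio of both libraries (at least 50 CPM and 10% of cells in the higher group); members of 22 gene lists past 2-fold in both libraries, with up to 4 examples per list; and genes past 2-fold in opposite directions. *Adgre1*, *Egfl7* and the receptor genes of *Calca* were named after their values were seen. The members and all lists were chosen with earlier results of these data known. Alternatives changed the ranking, thresholds, cell filters, depth (cells thinned to 3000 UMIs) and weighting, and beside 17 of these, 4 were added after the data were seen, as were values without the cell with the most UMIs of a gene and the split into subsets. Figures were drawn with matplotlib 3.10.9.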

Additional observations from a re-analysis of the deposited data

Results flagged for a closer look

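In 3 genes the selected cells were 2-fold or more above the other *Cpa3*-high cells in one library and 2-fold or more below them in the other. With 1 library per group the difference was not tested.

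*Mcpt2*, a mucosal mast cell protease gene, had a log2 ratio of 1.18 in Em-Ex, at 691 against 305 CPM, and of -1.52 in YS-Ex, at 63.5 against 183 CPM. In Em-Ex 29.4% of its UMIs lay in 1 selected cell, and it was at 1031 CPM in the cells led by *Egln3* and *Bnip3* and 118 CPM in those led by *Calca* and *Mxd1*.

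*Abhd17c*, a depalmitoylase gene, had a log2 ratio of -2.34 in Em-Ex, from 2 UMIs in the selected cells (0.158 times the other cells, 0.0191–0.572), and of 1.29 in YS-Ex, with UMIs in 34 of 112 selected cells.

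*Stmn2*, a microtubule regulator of the stathmin family, had 0 UMIs in the 48 selected Em-Ex cells and 52.3 CPM in the others. By a floor of 3 UMIs over the group it was at least 8.50-fold lower, a log2 bound of -3.09. Its log2 ratio in YS-Ex was 1.27, from 7 of 112 cells, 1 of which held 30.2% of the UMIs.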

How the results depend on the processing

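No paired analysis was possible because each group has 1 library. Of 1368 gene values under alternatives, 981 stayed within the counting interval of the reported value, 378 left it and 9 changed sign from past 2-fold. Of 817 list medians, 786 stayed within 1.5 times, 28 did not and 3 changed sign from past 2-fold, where medians nearer 0 that crossed it are not counted.

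Of 116 counts and shares, 42 moved. With the top 4% taken within each library, the selected shares were 4.0% and 4.02%, with 107 genes higher and 48 lower in Em-Ex and 268 lower in YS-Ex. With the top 2% the shares were 1.25% and 2.82%, with 416 and 293 genes higher and 397 and 366 lower, and with the top 8% they were 4.77% and 11.5%, with 96 and 67 higher and 51 and 73 lower. Genes lower in YS-Ex numbered 86 without *Calca* in the score, 288 without *Bnip3*, 61 without *Mxd1* (76 in Em-Ex), 78 with up to 10% mitochondrial UMIs, and 77 with the other cells weighted to the same depth (113 in Em-Ex). Thinning to 3000 UMIs gave 88 higher and 64 lower in YS-Ex, and reading genes in UMIs not used for the choice gave 385 and 322 in Em-Ex. A minimum of 50 CPM left 81 and 66 higher and 49 and 41 lower, and no minimum gave 1546 and 600 higher and 989 and 958 lower, by construction through the number of genes tested. Otherwise the cause was not tested.

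Of the alternatives chosen after seeing the data, ranking on *Egln3* and *Bnip3* alone gave 110 genes lower in Em-Ex, and 76 higher and 32 lower in YS-Ex. There the log2 ratios in YS-Ex turned to -0.09 for *Calca*, -0.34 for *Crem* and -3.30 for *Tgm2*, the 1 measured transglutaminase (list median -3.30). Ranking on *Calca* and *Mxd1* alone gave 243 lower in YS-Ex, with *Slc2a3* at -0.25 in Em-Ex and *Pfkl* at -0.09 in YS-Ex. Against other cells at or below the median of cell cycle UMIs, a choice that itself lowers those genes, 90 and 31 genes were lower. The G2 and M phase medians became 3.54 and 3.77 and the S phase medians 1.76 and 0.63 in Em-Ex and YS-Ex. *Birc5* went to 3.12 and 3.77, *Hmgn2* to 0.15 in Em-Ex and *Phgdh* to 0.31 in YS-Ex. Depth limits low genes: 3 UMIs over the selected Em-Ex cells amount to 6.16 CPM.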

Other observations

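Selected cells in which a Y-chromosome gene (*Ddx3y*, *Eif2s3y*, *Kdm5d* or *Uty*) and no *Xist* was found made up 15 of 45 cells with either kind of transcript in Em-Ex (33.3%, 20.0–49.0), and in YS-Ex 34 of 107 (31.8%, 23.1–41.5). Among the other *Cpa3*-high cells the shares were 18.2% (16.5–20.0) and 34.3% (32.1–36.7).

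Barcodes over the mitochondrial limit that met the limits on *Cpa3* and *Mcpt1* reached the score of the selected cells in 5 of 242 cases in Em-Ex (2.07%, 0.674–4.76), and in YS-Ex 26 of 855 (3.04%, 2.00–4.42), with median depths of 6064 and 6126 UMIs.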
